A study of Mus musculus with 12 samples.

Results

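The nuclear pore and transport receptor genes are the genes for the proteins of the nuclear pore complex, for the receptors that carry cargo through it and for the Ran cycle that gives this traffic its direction. They were taken from the array's own gene names: Nup followed by a number or l, names starting with Kpna, Kpnb, Ipo or Xpo, and Pom121, Ndc1 (Tmem48 on the array), Aaas, Seh1l, Tpr, Ranbp2, Ran, Rangap1, Rcc1, Tnpo1, Tnpo2, Tnpo3 and Cse1l. This gave 55 genes, measured by 123 probes, of 21169 named genes and 41174 probes in all. All 55 were bright enough to be among the 15322 genes tested. Expression was measured on Agilent arrays of 1 colour (Cy3) in mouse embryonic stem (ES) cells that had differentiated for 3 days with retinoic acid and in undifferentiated ES cells. Each group held 3 biological samples with 2 technical arrays each, whose values were averaged. The series was made for a study of H4K16 acetylation during ES cell differentiation. Genotype, line, retinoic acid dose and culture on or off feeder cells are not given in the sources used here. Nothing there says that the samples were separate cultures either, so each p reflects only how far these 3 and 3 differ among themselves, which may be technical.

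The nuclear pore complex is a ring of many different nucleoporins, set in the nuclear envelope, with a scaffold of Y complexes and an inner ring, a channel filled with FG repeats, cytoplasmic filaments and a nuclear basket. Importin alpha binds the classical nuclear localisation signal and rides on importin beta, other importins bind their cargo directly, and exportins bind cargo together with RanGTP, which Rcc1 makes on chromatin and Rangap1 helps to hydrolyse in the cytoplasm. In mouse ES cells, an exchange of importin alpha paralogs has been described in neural differentiation, and the nucleoporins Nup133 and Nup210 have been tied to the same step.

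The labels fitted the markers of both states. All 6 ES cell markers fell after retinoic acid (Pou5f1, Nanog, Sox2, Zfp42, Esrrb and Tdgf1; median log2 difference -4.41), and 5 of 6 retinoic acid response genes rose, Cyp26a1 by 8.04 on the log2 scale. Levels are given as log2 of the quantile-normalised net intensity plus 50, and a difference is the retinoic acid mean minus the undifferentiated mean, so a positive one means higher after retinoic acid. Adjusted p-values under 0.05 counted as calls. All 3 extraembryonic endoderm markers rose, as did 1 of 3 neural markers (Pax6) and 3 of 6 fibroblast markers, with 1 fibroblast marker lower. The summed level of the fibroblast list was 13.62 to 13.75 in the retinoic acid samples, against 12.01 to 13.24 in the undifferentiated samples. Most of that sum was Vim, with 13.41, 13.32 and 13.55 in the retinoic acid samples, against 12.11, 11.49 and 13.08 in the undifferentiated samples. Thy1 was the fibroblast marker that fell (-2.07), so the sum mainly follows 1 gene. The part of these cell types in the results below was not tested. In RNA from a whole culture, fewer cells of a type and less RNA per cell cannot be told apart. Of 8 genes of cycling cells, 1 rose (Mki67, 0.69), 7 were not called, and their summed level overlapped, 16.17 to 16.40 after retinoic acid and 16.24 to 16.36 in undifferentiated cells. Median spot intensity was 37.4 to 96.6 over the 12 arrays, highest on the replicate 3 arrays of both groups, and 1 array (undifferentiated replicate 2, technical array 2) carried the other technical array's name in its header.

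Retinoic acid treatment was followed by a limited set of changes in this machinery, mostly decreases. Of the 55 genes, 9 fell (16.4%, where 13.6% of all genes tested fell): the nucleoporin genes Nupl2, Nup54, Nup43, Nup160, Nup35 and Nup88, the exportin genes Xpo4 and Xpo7, and the importin gene Ipo8. The probe behind the Ipo8 call carries an accession described on the array as Abcc10, and the other 2 Ipo8 probes were not called. Only 2 rose (3.64%, where 18.7% of all genes tested rose), the import receptor genes Ipo13 and Tnpo1, and 44 were not called. The share that fell lay near that of all genes, while the share that rose lay below it. The lists by role below hold 1 to 11 genes each, and their counts stand against the same all-gene shares. No difference reached 2-fold except that of Nupl2 (1 of 55 genes, 1.82%), where 17.2% of all genes tested did. The median difference over the 55 genes was -0.19 and the range was -1.06 to 0.61, with 39 genes below 0 and 16 above. The median over all genes was 0.0035. The median size of the difference, whatever its sign, was 0.28 for the 55 genes and 0.40 for all genes. The 3 retinoic acid and the 3 undifferentiated samples did not overlap in 20 of the 55 genes (36.4%), 16 of them lower after retinoic acid and 4 higher, where this held for 46.6% of all genes tested.

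The count of calls depended on single samples and both rises depended on the scaling. Without retinoic acid replicate 1 there were 0 rises and 3 falls, without retinoic acid replicate 2 there were 1 and 6, and without retinoic acid replicate 3 there were 0 and 2. Without undifferentiated replicate 1 there were 0 rises and 6 falls, without replicate 2 of that group 1 and 9, and without replicate 3 of that group 2 and 8. Nupl2 and Nup160 kept their calls in all of these fits. Over all genes tested, 2871 were higher and 2083 lower with every sample in. Those counts were 2095 and 1326 without retinoic acid replicate 1, 2445 and 1842 without replicate 2, and 2007 and 1228 without replicate 3. They were 2168 and 1543 without undifferentiated replicate 1, 3147 and 2108 without replicate 2, and 2554 and 2102 without replicate 3. Scaling each array to its 75th percentile in place of quantile normalisation gave 0 rises and 15 falls among the 55 genes. Over all genes it gave 2435 rises and 2633 falls. The median was then -0.44 for the 55 genes and -0.09 for all genes. All 9 falls and neither rise were among the calls under that scaling. The median of the 55 genes was -0.19 in the main fit, so that scaling moved them toward lower values. Such a shift favours falls over rises, and the falls that stayed gain no separate support from it.

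**Figure D1:**
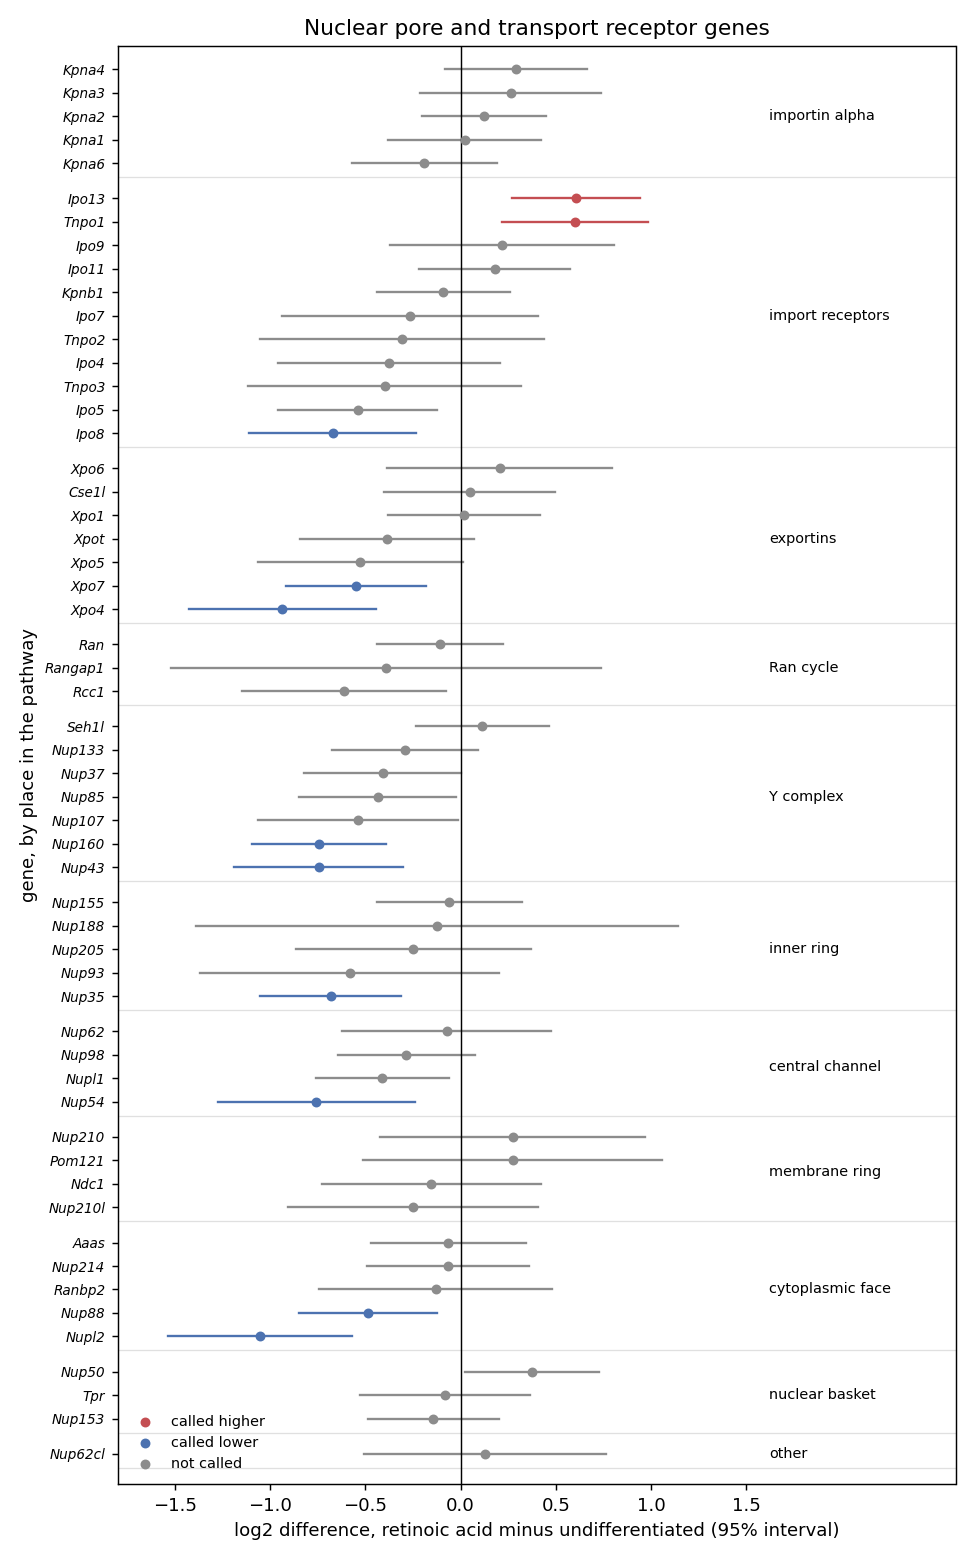
Difference in level of each of the 55 genes on the log2 scale, retinoic acid minus undifferentiated (points), with 95% intervals from limma (bars), grouped by place in the pathway. The 9 genes called lower lie between -1.06 and -0.49, the 2 called higher lie at 0.60 and 0.61, and none of the 5 importin alpha genes was called.

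None of the 5 importin alpha genes, which encode the adaptors between classical import signals and importin beta, was called in either direction. The paralogs differ in the cargo they prefer, and Kpna2 is the one described as prominent in undifferentiated ES cells. Kpna2 had levels of 14.00, 14.10 and 13.97 in the retinoic acid samples, against 13.94, 13.82 and 13.95 in the undifferentiated samples. Its samples did not overlap and lay slightly higher after retinoic acid, but the difference of 0.12 ± 0.14 (SE) did not pass the test (adjusted p = 0.557, 95% interval -0.20 to 0.45). Its sign was not stable, since scaling to the 75th percentile gave -0.30 and scaling to the median -0.27. Kpna3 had 11.35, 11.88 and 11.30 in the retinoic acid samples, against 11.39, 11.04 and 11.31 in the undifferentiated samples. Retinoic acid replicate 2 was its highest sample and the groups overlapped (difference 0.26 ± 0.21, 95% interval -0.21 to 0.74, adjusted p = 0.378).

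Kpna4 had 10.71, 10.74 and 10.50 in the retinoic acid samples, against 10.52, 10.17 and 10.37 in the undifferentiated samples. Here the lowest retinoic acid sample lay below the highest undifferentiated sample (difference 0.29 ± 0.16, 95% interval -0.08 to 0.67, adjusted p = 0.211). Kpna1 gave 9.90, 10.35 and 10.24 in the retinoic acid samples, against 10.02, 10.13 and 10.27 in the undifferentiated samples, a difference of 0.02 ± 0.17 with full overlap (95% interval -0.38 to 0.42, adjusted p = 0.941). Kpna6 lay at 10.95, 10.79 and 10.80 in the retinoic acid samples, against 10.84, 11.26 and 11.00 in the undifferentiated samples. It was the only paralog with a difference below 0 here, although Kpna1 and Kpna2 joined it under both other scalings: its value was -0.19 ± 0.16, with overlap (95% interval -0.57 to 0.19, adjusted p = 0.429). Together the intervals reach from -0.57 (Kpna6) to 0.74 (Kpna3), and in the 21 alternative settings none of the 5 genes was called.

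Whether the paralogs differed from each other in their response was asked within samples, by the level of Kpna2 minus that of each other paralog. Between the groups this quantity differed by 0.10 ± 0.14 (SE, n = 3 each) against Kpna1 (exact permutation p = 0.5, adjusted p = 0.6) and by -0.14 ± 0.16 against Kpna3 (exact p = 0.6, adjusted p = 0.6). It differed by -0.17 ± 0.08 against Kpna4 and by 0.31 ± 0.18 against Kpna6 (exact p = 0.2 and adjusted p = 0.4 for each). The tests were two-sided and adjusted over the 4 pairs, and 3 samples against 3 cannot go below 0.1, so this test could not pass 0.05 whatever the values, and the differences stand as a description. Under scaling to the 75th percentile the difference against Kpna1 turned to -0.22, and those against Kpna3 and Kpna4 grew to -0.31 and -0.43, that is, toward lower Kpna2 relative to the other paralog. The differences against Kpna3 and Kpna4 turned to 0.10 and 0.28 instead when all probes of a gene were averaged.

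Other probes of the same paralogs bear on this. The dimmer Kpna2 probe had 13.68, 14.00 and 14.01 in the retinoic acid samples, against 13.89, 13.67 and 13.99 in the undifferentiated samples, with full overlap and a difference of 0.05. The dimmer probes of Kpna3 gave -0.0018 and -0.31 and those of Kpna4 -0.41 and -0.46, all below 0 where the brightest probes lay above it, and none of them was called. The dimmer Kpna6 probe gave -0.14, on the same side as the brightest.

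**Figure D2:**
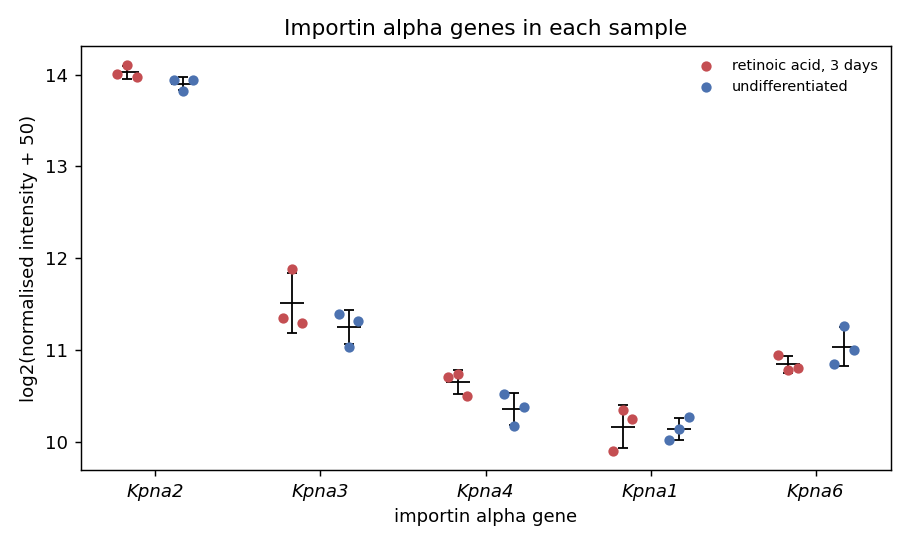
Levels of the 5 importin alpha genes in each sample as log2 of normalised intensity plus 50, retinoic acid (red) left of undifferentiated (blue), with the mean and SD of 3 samples. The groups overlap for every gene but Kpna2, whose 3 retinoic acid samples lie between 13.97 and 14.10 and whose undifferentiated samples lie between 13.82 and 13.95; heights of different genes are not comparable, since each has its own probe.

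Among the 11 import receptors of the importin beta family, 2 rose, 1 fell and 8 were not called. Ipo13, a receptor that carries cargo in both directions, had 11.19, 11.07 and 11.09 in the retinoic acid samples, against 10.41, 10.64 and 10.49 in the undifferentiated samples. Every retinoic acid sample was higher, by 0.61 ± 0.15 (SE) or 1.52-fold (adjusted p = 0.0153). Its call was lost without retinoic acid replicate 1 or 3 and without undifferentiated replicate 1 (adjusted p 0.0131 to 0.0702 over the 6 fits that leave out a sample), and under both other scalings. Tnpo1, also called transportin 1, imports RNA-binding proteins such as hnRNP A1 and had 11.55, 11.91 and 11.59 in the retinoic acid samples, against 11.05, 10.96 and 11.23 in the undifferentiated samples. Its groups did not overlap either, with a difference of 0.60 ± 0.17 or 1.52-fold (adjusted p = 0.0273). This call was lost in 10 of 21 alternatives, among them the omission of any sample but undifferentiated replicate 3 (adjusted p 0.0279 to 0.0795). The other Tnpo1 probe, of similar brightness, had 11.47, 11.11 and 11.17 in the retinoic acid samples, against 11.32, 11.16 and 11.39 in the undifferentiated samples, a difference of -0.04 with overlapping groups.

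Ipo8, which imports cargo including a signal recognition particle protein and argonaute proteins, had 10.11, 10.14 and 9.88 in the retinoic acid samples, against 10.46, 11.03 and 10.66 in the undifferentiated samples. The groups were apart, with a difference of -0.67 ± 0.19 or 0.628-fold (adjusted p = 0.0290), and the call was lost without any 1 of the retinoic acid samples or undifferentiated replicate 2 (adjusted p 0.0298 to 0.119). This probe was named Ipo8 on the array, but its accession is described there as a partial mRNA of Abcc10. The 2 other Ipo8 probes both gave -0.37 and were not called (adjusted p = 0.0941 and 0.198 in the fit of all probes). Ipo5, an importer of histones and ribosomal proteins, lay just outside the threshold with 12.69, 12.75 and 12.74 in the retinoic acid samples, against 13.58, 13.18 and 13.03 in the undifferentiated samples. Its groups did not overlap (difference -0.54 ± 0.18, adjusted p = 0.0537), and it was called lower in 7 of 21 alternatives, without undifferentiated replicate 3 among them (adjusted p 0.0306 to 0.151 with a sample left out).

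The central import receptor Kpnb1, the importin beta that partners importin alpha, had 13.07, 12.95 and 12.90 in the retinoic acid samples, against 13.16, 13.13 and 12.91 in the undifferentiated samples. Its groups overlapped and its difference was -0.09 ± 0.15 (95% interval -0.44 to 0.26, adjusted p = 0.694), so the interval holds neither a 2-fold rise nor a 2-fold fall. The brightest probe of Ipo7, an importer of ribosomal proteins, gave -0.26 ± 0.29 with overlap, but 2 of its 3 dimmer probes were called lower by themselves. The one with the larger difference had 7.60, 7.49 and 7.56 in the retinoic acid samples, against 8.42, 8.01 and 9.33 in the undifferentiated samples, a difference of -1.04 (adjusted p = 0.0469). The other had a difference of -0.69 (adjusted p = 0.0463). Ipo11 gave 0.18 with its brightest probe and -0.33 and -0.47 with its dimmer ones, none called. The 4 remaining import receptors not yet named, Ipo4, Ipo9, Tnpo2 and Tnpo3, had differences from -0.40 (Tnpo3, which imports SR splicing factors) to 0.22 (Ipo9) and were not called.

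Of the 7 exportins 2 fell, 0 rose and 5 were not called. Xpo4, which exports the translation factor eIF5A and has also been described to import Sox proteins, had 7.32, 7.28 and 7.16 in the retinoic acid samples, against 8.64, 7.99 and 7.95 in the undifferentiated samples. All retinoic acid samples lay below all undifferentiated samples, and undifferentiated replicate 1 was the highest of all. The difference was -0.94 ± 0.21 or 0.522-fold (adjusted p = 0.0119), and the call was lost in 1 of 21 alternatives, without retinoic acid replicate 3 (adjusted p = 0.0537). Its dimmer probe gave -0.43 and was not called. Xpo7, a broad-specificity exportin, had 10.65, 10.53 and 10.76 in the retinoic acid samples, against 11.26, 11.01 and 11.32 in the undifferentiated samples. The groups were again apart, with a difference of -0.55 ± 0.16 or 0.683-fold (adjusted p = 0.0317), with the call lost in 9 of 21 alternatives, including every omission of a sample but undifferentiated replicate 2 (adjusted p 0.0179 to 0.0975).

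Xpo1 (CRM1), the general exportin for leucine-rich export signals, had 13.22, 13.44 and 12.95 in the retinoic acid samples, against 13.28, 13.11 and 13.16 in the undifferentiated samples. Its difference was 0.02 ± 0.17 with full overlap (95% interval -0.38 to 0.42, adjusted p = 0.951). The dimmer Xpo1 probes gave -0.25 and -0.22, not called. Over the alternatives the sign was not stable (-0.38 to 0.15), without a call. Cse1l, the exportin that returns importin alpha to the cytoplasm, had 12.66, 12.93 and 12.88 in the retinoic acid samples, against 12.95, 12.43 and 12.96 in the undifferentiated samples. It too overlapped, with a difference of 0.05 ± 0.19 (95% interval -0.40 to 0.49, adjusted p = 0.883). The dimmer Cse1l probe gave -0.11, and the alternatives ran from -0.35 to 0.14, without a call. Xpo5, which exports microRNA precursors, averaged 10.91 ± 0.07 after retinoic acid and 11.43 ± 0.45 in undifferentiated cells (SD, n = 3 each). Only undifferentiated replicate 3 (10.91) lay within the retinoic acid range of its brightest probe, and without that sample the gene was called lower (adjusted p = 0.00870), against 0.123 with all 6 and up to 0.309 with another sample left out. Its next brightest probe lay on the other side of 0 (0.05). The tRNA exportin Xpot gave -0.39 ± 0.20 and Xpo6, an exporter of actin with profilin, gave 0.21 ± 0.25, neither called.

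In the Ran cycle none of the 3 genes was called. Ran, the GTPase itself, had 15.20, 15.26 and 15.04 in the retinoic acid samples, against 15.29, 15.24 and 15.29 in the undifferentiated samples, a difference of -0.11 ± 0.14 (95% interval -0.44 to 0.22, adjusted p = 0.611). The Ran probe is the only one of those standing for the 55 genes that passed an intensity of 40000, near the arrays' brightest spots, so this difference is approximate. Rcc1, the exchange factor that loads Ran with GTP on chromatin, had 11.03, 10.32 and 10.74 in the retinoic acid samples, against 11.30, 11.04 and 11.60 in the undifferentiated samples. Its groups did not overlap, but the difference of -0.61 ± 0.23 missed the threshold (adjusted p = 0.0795). It was called lower in 4 of 21 alternatives, both other scalings among them. Rangap1, the GTPase-activating partner, varied widely within groups (11.01 ± 0.60 after retinoic acid and 11.40 ± 0.96 in undifferentiated cells, SD, n = 3 each).

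The 28 nucleoporin genes held 6 falls and 0 rises (21.4% lower), with a median difference of -0.25 and 24 of the 28 below 0. Of all genes tested 13.6% fell and 18.7% rose, their median was 0.0035, and 7621 of the 15322 lay below 0. In the Y complex, the outer scaffold that also seeds new pores after mitosis, 2 of 7 genes fell and 6 of 7 lay below 0, counts too small to set against those shares. Nup160 had 11.12, 11.31 and 11.19 in the retinoic acid samples, against 12.12, 11.86 and 11.87 in the undifferentiated samples. The groups were far apart relative to the spread within them, with a difference of -0.74 ± 0.15 or 0.597-fold (adjusted p = 0.00777), and the call held in all 21 alternatives (adjusted p 0.000591 to 0.0412). The next brightest Nup160 probe gave -0.73 and was also called. Nup43 had 11.05, 11.13 and 11.02 in the retinoic acid samples, against 12.18, 11.69 and 11.57 in the undifferentiated samples. Undifferentiated replicate 1 was its highest sample, the groups did not overlap, and the difference was -0.75 ± 0.19 or 0.596-fold (adjusted p = 0.0201). Its dimmer probe gave -0.94 and was called as well, while the call of the brightest was lost without retinoic acid replicate 1 or 3 or undifferentiated replicate 1 (adjusted p 0.0153 to 0.0789).

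The other Y complex genes were not called, although Nup107, Nup85 and Nup37 also had groups that did not overlap. Nup107 had 9.67, 9.40 and 9.66 in the retinoic acid samples, against 10.54, 9.72 and 10.08 in the undifferentiated samples (difference -0.54 ± 0.23, adjusted p = 0.110). Without undifferentiated replicate 2 its difference was -0.73 and it was called lower (adjusted p = 0.0292), while without undifferentiated replicate 1 its difference was -0.32, and the adjusted p ranged up to 0.293 over the fits that leave out a sample. Nup85 gave -0.43 ± 0.18 and Nup37 gave -0.41 ± 0.18 (adjusted p = 0.101 and 0.120). Nup133, one of the Y complex proteins tied to neural differentiation of ES cells, had 12.18, 12.52 and 12.26 in the retinoic acid samples, against 12.50, 12.78 and 12.55 in the undifferentiated samples, with overlap and a difference of -0.29 ± 0.17 (95% interval -0.68 to 0.09, adjusted p = 0.222). Seh1l, a Y complex member shared with the GATOR2 complex of amino acid sensing, was the clearest disagreement between probes. Its brightest probe gave 11.71, 11.94 and 11.82 in the retinoic acid samples, against 11.83, 11.66 and 11.63 in the undifferentiated samples, a difference of 0.11 ± 0.15. The next probe gave 9.57, 9.75 and 9.71 in the retinoic acid samples, against 10.95, 10.31 and 10.72 in the undifferentiated samples. That probe was called lower (-0.98, adjusted p = 0.00919 in the fit of all probes), with no overlap, while the dimmest gave -0.18 and was not called. Which probe stands for the gene therefore decides its result.

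In the inner ring, which anchors the channel to the scaffold, 1 of 5 genes fell. Nup35 (the orthologue of yeast Nup53) had 11.52, 11.70 and 11.58 in the retinoic acid samples, against 12.21, 12.49 and 12.14 in the undifferentiated samples. All retinoic acid samples were lower, with a difference of -0.68 ± 0.16 or 0.623-fold (adjusted p = 0.0136), and the call was lost without retinoic acid replicate 1 or 3 (adjusted p 0.0154 to 0.0612). Nup93, Nup155, Nup188 and Nup205 all lay below 0, from -0.58 (Nup93) to -0.06 (Nup155), and were not called. Nup188 was the noisiest of the 55 genes by its standard error, -0.12 ± 0.55, so its interval (-1.39 to 1.14) is too wide to place it.

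In the central channel, 1 of 4 genes fell and all 4 lay below 0. Nup54, which forms the channel's FG repeat trimer with Nup62 and Nupl1 (Nup58), had 10.26, 11.06 and 10.75 in the retinoic acid samples, against 11.61, 11.32 and 11.40 in the undifferentiated samples. The lowest value was that of retinoic acid replicate 1, the groups did not overlap, and the difference was -0.76 ± 0.22 or 0.592-fold (adjusted p = 0.0341). That call was lost in 9 of 21 alternatives, among them the omission of replicate 1 or 3 of either group (adjusted p 0.0186 to 0.110). Nupl1 had 9.09, 9.29 and 9.27 in the retinoic acid samples, against 9.70, 9.49 and 9.69 in the undifferentiated samples. Its groups were apart too, but the difference of -0.41 ± 0.15 was short of the threshold (adjusted p = 0.0724) and past it without undifferentiated replicate 2 (adjusted p 0.0479 to 0.234 with a sample left out). Nup62 itself overlapped (-0.07 ± 0.24, 95% interval -0.62 to 0.48), and Nup98, an FG nucleoporin that also occurs off the pore, gave -0.28 ± 0.16 (adjusted p = 0.209).

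On the cytoplasmic face, 2 of 5 genes fell. Nupl2 (Nup42), an FG nucleoporin that binds the mRNA export factor Gle1, had 7.58, 8.21 and 8.03 in the retinoic acid samples, against 8.80, 9.21 and 8.97 in the undifferentiated samples. This was the largest difference of the 55 genes, -1.06 ± 0.21 or 0.481-fold (adjusted p = 0.00669), and it was called in all 21 alternatives (adjusted p 0.000381 to 0.0257). The dimmer Nupl2 probe gave -0.42 and was not called (adjusted p = 0.0906). Nup88, the partner of Nup214 in the filaments, had 12.34, 12.42 and 12.38 in the retinoic acid samples, against 12.66, 12.90 and 13.04 in the undifferentiated samples. Its groups did not overlap, the difference was -0.49 ± 0.16 or 0.713-fold (adjusted p = 0.0475), and the call was lost in 11 of 21 alternatives, among them the omission of any sample but undifferentiated replicate 1 (adjusted p 0.0440 to 0.145). The dimmer Nup88 probe fell by 0.63 (adjusted p = 0.0253 in the fit of all probes). Nup214, Ranbp2 (Nup358, the main filament protein and a SUMO ligase) and Aaas (aladin) gave differences of -0.13 to -0.06 and were not called.

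Neither the nuclear basket (3 genes) nor the membrane ring (4 genes) held a call. Nup50, a basket protein that helps to release importin alpha cargo, had 11.00, 10.83 and 10.92 in the retinoic acid samples, against 10.57, 10.67 and 10.38 in the undifferentiated samples. The groups of this probe did not overlap and lay higher after retinoic acid, by 0.38 ± 0.15 (adjusted p = 0.0972), whereas its 2 other probes, of similar brightness, gave -0.24 and -0.26. Tpr and Nup153, the other basket proteins, gave -0.08 ± 0.19 and -0.14 ± 0.15. Nup210, a membrane glycoprotein that was reported to appear during muscle and neural differentiation, had 10.38, 11.09 and 10.88 in the retinoic acid samples, against 10.35, 11.11 and 10.07 in the undifferentiated samples. The groups overlapped widely, and the difference was 0.27 ± 0.30 (95% interval -0.42 to 0.97, adjusted p = 0.541). Pom121, which takes part in pore assembly in interphase, gave 0.27 ± 0.34, and Ndc1, the membrane anchor, gave -0.15 ± 0.25. Nup210l was close to background, above its limit on 4 of the 6 arrays of each group, and gave -0.25 ± 0.28. Nup62cl, a relative of Nup62 with no assigned place here, gave 0.13 ± 0.27.

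**Figure D3:**
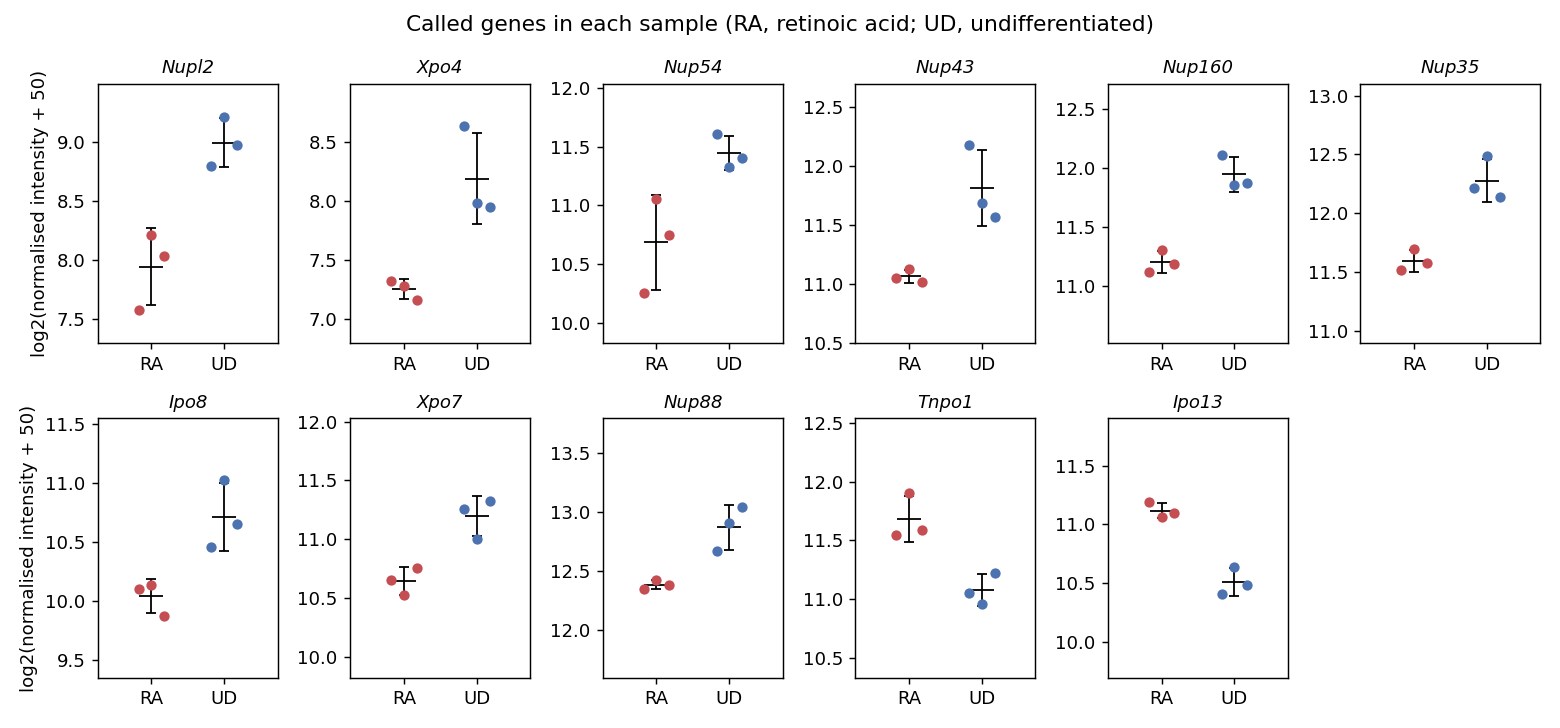
Level of the 11 called genes in each sample as log2 of normalised intensity plus 50, retinoic acid (red) left of undifferentiated (blue), with the mean and SD of 3 samples; all panels span the same height on the log2 scale. In each of the 9 genes called lower every retinoic acid sample lies below every undifferentiated sample, and for Tnpo1 and Ipo13 the order is turned.

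The promoter stretches of Nupl2 and Nup160, the falls called in every alternative, of Nup54, a channel gene that fell, of Ipo13, which rose, and of Kpna2 are shown so that the promoters of falling, rising and uncalled genes can be set side by side. Each is the 250 bases upstream of the RefSeq start (assembly GRCm38.p6), 5′ to 3′ on the gene's strand, with capitals marking matches to a short list of motifs. Nupl2 lies at chr5:24164713-24164962, plus strand, Nup160 at chr2:90676965-90677214, plus strand, Nup54 at chr5:92435200-92435449, minus strand, Ipo13 at chr4:117915000-117915249, minus strand, and Kpna2 at chr11:106999526-106999775, minus strand.
Nupl2: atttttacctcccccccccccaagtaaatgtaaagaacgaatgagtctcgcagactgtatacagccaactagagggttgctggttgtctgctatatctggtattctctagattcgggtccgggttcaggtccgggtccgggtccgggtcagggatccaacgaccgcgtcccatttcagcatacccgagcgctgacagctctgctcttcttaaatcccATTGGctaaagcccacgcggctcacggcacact
Nup160: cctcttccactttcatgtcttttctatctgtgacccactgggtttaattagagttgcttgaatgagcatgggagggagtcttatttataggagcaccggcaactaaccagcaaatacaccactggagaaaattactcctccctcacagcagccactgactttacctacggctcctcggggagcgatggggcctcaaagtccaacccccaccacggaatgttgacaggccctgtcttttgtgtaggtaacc
Nup54: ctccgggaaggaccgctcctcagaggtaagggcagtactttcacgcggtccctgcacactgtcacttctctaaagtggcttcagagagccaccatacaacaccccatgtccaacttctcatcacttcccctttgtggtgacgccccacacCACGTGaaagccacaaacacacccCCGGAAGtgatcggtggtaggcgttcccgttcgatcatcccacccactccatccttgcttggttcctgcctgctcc
Ipo13: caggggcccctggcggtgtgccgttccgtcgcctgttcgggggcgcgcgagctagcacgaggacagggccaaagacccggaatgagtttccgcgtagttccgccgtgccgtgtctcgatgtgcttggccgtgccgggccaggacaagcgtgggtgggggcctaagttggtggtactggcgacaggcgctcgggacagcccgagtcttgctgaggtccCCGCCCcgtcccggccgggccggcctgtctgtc
Kpna2: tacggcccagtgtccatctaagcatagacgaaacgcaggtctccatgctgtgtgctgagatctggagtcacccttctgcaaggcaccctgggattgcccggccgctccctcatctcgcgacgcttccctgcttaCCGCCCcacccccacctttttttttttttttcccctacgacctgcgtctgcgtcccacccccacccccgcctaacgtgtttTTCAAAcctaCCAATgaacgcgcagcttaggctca

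The motifs were searched on both strands by their letters: the CCAAT box (CCAAT), the GC box (GGGCGG), the E-box (CACGTG), an ETS site (CCGGAAG), the core of the NRF1 site (GCGCATGC) and the cell cycle homology region (TTTGAA). Counting back from the start, Nupl2 has a CCAAT box at -33, Nup54 an E-box at -100 and an ETS site at -76, and Ipo13 a GC box at -33. Kpna2 has a GC box at -116, a cell cycle homology region at -35 and a CCAAT box at -25. The Nup160 window holds none of these letters. Of the 55 genes, 44 have such a window in the RefSeq table, and 29 of them (65.9%) hold the GC box, against 32.7% of all 32851 windows. The NRF1 core occurs in 5 of the 44 (11.4%) against 2.26% of all windows, the E-box in 8 (18.2%) against 6.02%, and the ETS site in 7 (15.9%) against 6.91%. CCAAT boxes occur in 20 (45.5%) against 33.8%, and the cell cycle homology region in 10 (22.7%) against 16%. Of the 5 falling genes with a window, 1 holds the GC box, 2 the CCAAT box, 1 the E-box, 1 the ETS site and 0 either of the others. These are matches of letters and were not tested against the windows' base composition. The shares are also of unlike kinds. Each of the 44 genes counted if any window of it held the motif, while the share of all windows counted single windows. The gaps between these shares therefore do not measure enrichment. The 5 windows above have 50% to 70.4% GC, where the median of all windows is 52.4%.

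Probes of the same gene did not always tell the same story. Of the 123 probes 118 were tested, and by themselves 2 were called higher and 14 lower, where 14% of all 26587 probes tested were higher and 11.5% lower. Of 39 genes with 2 or more tested probes, 27 had all of them on one side of 0 and 12 had them on both sides. Among the 63 tested probes that did not represent their gene, 58 lay below 0, compared with 39 of the 55 that did. The share of such probes below 0 over all genes was not computed, so these counts do not set these genes apart. Dimmer probes are compressed toward 0 by the added 50. With the mean of all probes of a gene in place of the brightest, the counts were 1 higher (Ipo13) and 9 lower, with Ipo5 in and Xpo7 out among the falls, and Tnpo1 was no longer called.

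**Figure D4:**
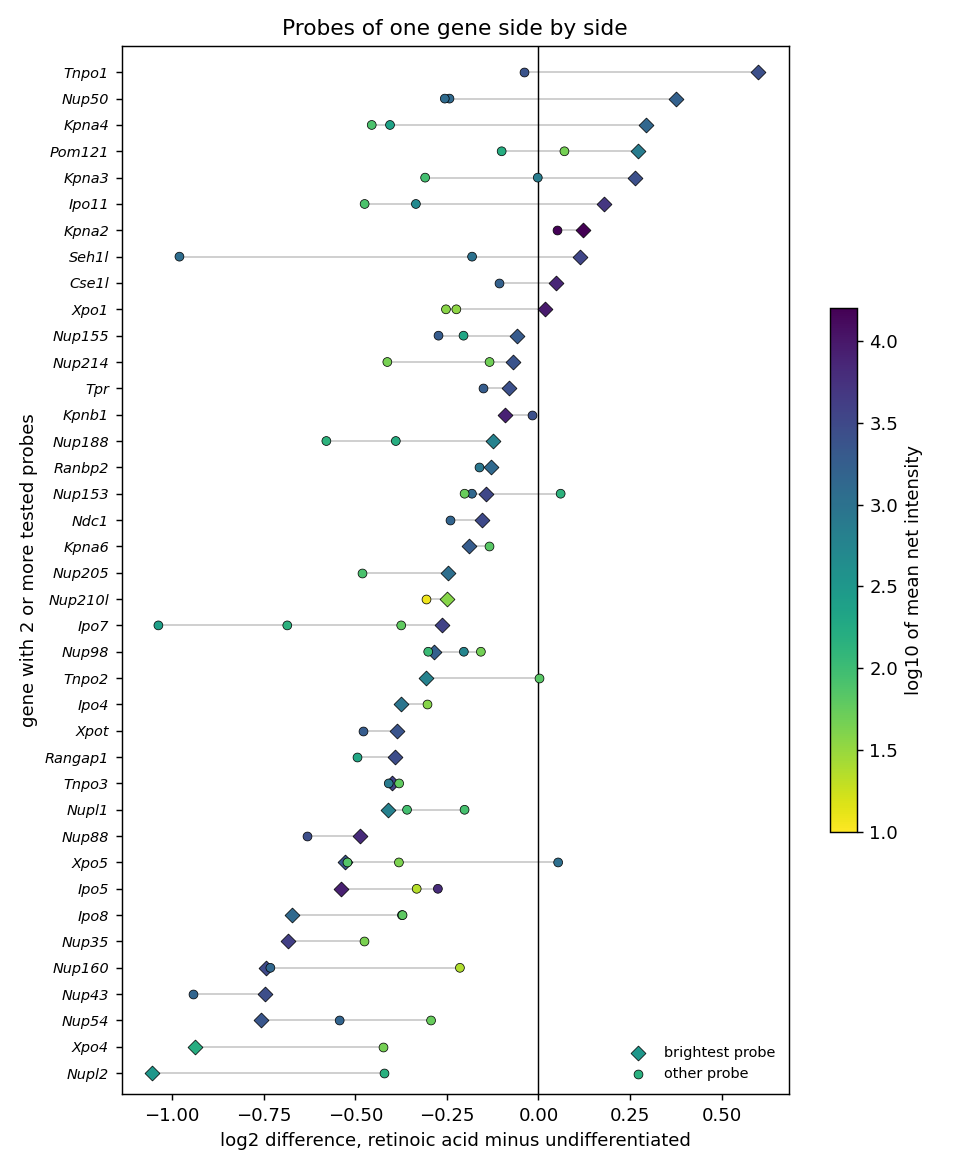
Difference on the log2 scale, retinoic acid minus undifferentiated, of each tested probe of the 39 genes with 2 or more tested probes; diamonds are the brightest probe of a gene, circles its other probes, and colour gives the log10 of mean net intensity. Seh1l shows the widest gap between its probes (0.11 to -0.98). Of the 63 circles 58 lie left of 0, a count for which no share over all genes was computed.

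A list of 41 other genes of nuclear transport and the nuclear envelope gives the setting. Of the 40 tested (Ranbp3l was not bright enough), 5 fell, 1 rose and 34 were not called, with a median difference of -0.12. The all-gene shares are 13.6% lower and 18.7% higher, with a median of 0.0035. Sun1, an inner nuclear membrane protein that links the nucleus to the cytoskeleton, had 10.84, 10.32 and 10.26 in the retinoic acid samples, against 11.59, 11.84 and 12.58 in the undifferentiated samples, a difference of -1.53 ± 0.28 (adjusted p = 0.00497). The groups were well apart, and the change was larger than that of any of the 55 genes. Ranbp17, a relative of Xpo7, had 8.54, 9.30 and 8.65 in the retinoic acid samples, against 9.91, 10.55 and 9.91 in the undifferentiated samples (difference -1.29 ± 0.26, adjusted p = 0.00761). Rangrf, known as Mog1 and a Ran-binding factor, fell to 11.62, 11.42 and 11.37 after retinoic acid, against 12.74, 12.74 and 12.34 in undifferentiated cells (difference -1.14 ± 0.17, adjusted p = 0.00205). These 3 falls exceeded 2-fold. Ddx19b, the helicase that remodels mRNA at the cytoplasmic face, fell as well (-0.93 ± 0.24, adjusted p = 0.0220), as did Mcm3ap, which encodes the mRNA export scaffold GANP (-0.67 ± 0.22, adjusted p = 0.0488). The 1 rise was that of Emd (emerin), with 12.43, 12.33 and 12.44 in the retinoic acid samples, against 11.78, 12.07 and 11.75 in the undifferentiated samples (difference 0.54 ± 0.16, adjusted p = 0.0321), and it was lost under both other scalings. Leaving out 1 sample gave 0 to 4 rises and 3 to 6 falls in this list. There were 0 rises without undifferentiated replicate 1 or 3 or any of the retinoic acid samples, and 4 without undifferentiated replicate 2. There were 3 falls without retinoic acid replicate 1 or 3. The counts over all genes moved in these fits too, as given above.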

How the data were processed

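Total RNA was amplified once, labelled with Cy3 and hybridised to Agilent arrays, per the labels. The deposited scanner tables hold net mean intensity per spot on a linear scale, per the file headers; the authors' way of subtracting local background is not stated there. Depth does not apply, and the 3 samples per group limit the precision. Software listed in the submitters' processing notes comprises limma and R 2.15.0. The authors' deposited table of processed intensity has a rank correlation of 1 with each array and was an alternative.

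Each table has 41268 spots, 94 of them controls. Intensities were quantile-normalised over 12 arrays, 50 was added, which understates changes of dim genes, and log2 was taken. A gene was represented by its brightest probe and tested if that probe exceeded the 95th percentile of the 27 negative controls on at least 4 of 6 arrays of either group. Accessions of 94 of the 123 probes matched the same gene in RefSeq (GRCm38.p6), 29 matched none and 0 another gene. The lookup covered only RefSeq and Ensembl transcripts. The Ipo8 probe described on the array as Abcc10 was therefore among those unmatched, and its identity was not checked in this way. Technical arrays (correlation 0.990 to 0.998) were averaged, and the groups compared with limma 3.58.1 in R 4.3.3 (two-sided, no covariates, 15322 genes, Benjamini-Hochberg). The same fit was run on 26587 probes. Of all genes, 2871 were higher, 2083 lower and 6553 had an unadjusted p under 0.05. The fit was tested on simulated data with 200 changed genes, fewer than were called here. It recovered 1% of changes of 0.5 on the log2 scale, 39.4% of those of 1, 87.1% of those of 2 and 98.8% of those of 4. A gene that was not called is therefore not shown to be unchanged. Figures and exact tests used Python 3.11.15, matplotlib 3.10.9 and scipy 1.17.1.

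Genes named with values were every importin alpha gene, called genes of each role (up to 4 per direction), genes whose probes disagreed, and up to 4 called genes per direction of the other transport list; Nupl1, Rcc1, Ipo5, Nup107, Nup85, Nup37, Nup133, Nup210, Nup188, Kpnb1, Xpo1, Cse1l and Ran, with the other uncalled genes given by value, and Mcm3ap, were added after their values were seen. The genes, lists and motifs were chosen with earlier results of these data known. The 21 alternatives were other scalings, filters, offsets, probe rules, array choices, blocks and each sample left out in turn.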

Additional observations from a re-analysis of the deposited data

How the results depend on the processing

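Of the alternatives for single genes, those of the 2 genes called higher kept the call in 27 cases and lost it in 15, those of the 9 called lower kept it in 150 and lost it in 39, and those of the 44 not called passed the threshold in 24. No called direction was reversed, but several of these alternatives could not reverse one. The filters, the fit of each probe, the blocks and the change of variance model left each gene's difference as it was. The authors' values left it nearly so. The tallies are therefore not of independent checks. Probes that did not represent their gene entered only through the mean of probes, and the other Tnpo1 probe lay at -0.04. Genes called higher numbered 0 with the 75th percentile or median scaling and 1 with an offset of 1, the mean of all probes or the replicate block, and 0 to 2 with a sample left out. Genes called lower numbered 15 with the 75th percentile scaling and 2 to 9 with a sample left out. Among all genes 2007 to 3147 were higher and 1228 to 2108 lower with a sample left out. With the 75th percentile scaling 2435 of all genes were higher and 2633 lower, and with the median scaling 2368 and 2240. In the other transport list, higher calls numbered 0 with both scalings and the replicate block, 2 with the mean of probes and 0 to 4 with a sample left out; lower calls numbered 8 with the 75th percentile scaling and with the mean of probes, and 3 to 6 with a sample left out. The change of Kpna2 minus that of Kpna1 became -0.22 with the 75th percentile and -0.21 with the median scaling, minus that of Kpna3 0.10 with the mean of probes, and minus that of Kpna4 -0.43 with either scaling and 0.28 with the mean of probes. The fits with a sample left out rest on fewer samples, and the cause of these and the other shifts was not tested. The deviations of same-numbered samples correlated at -0.06, 0.22 and 0.07, so the samples were taken to share only a number, although the replicate 3 arrays were the brightest of both groups; with the replicate block 1 gene was higher and 8 lower (Tnpo1, Nup54 and Nup88 out, Rcc1 in), and not every sample correlated best with its own number. The 3 samples a group limit what small differences can be called, Nup210l is near background, and the Ran probe is near the brightest spots.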
